A study of Mus musculus with 9 samples.

Results

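The data compared the RNA of contused and uninjured mouse spinal cord 7 days after surgery, in 3 mice that received a contusion and the vehicle (SCI) and 3 mice that received surgery without contusion (Sham), which are 6 of the 9 mice sequenced. The 6 were chosen by their sample labels alone, and what changed between them is described over all expressed genes. All were adult female C57BL/6N mice. In the Sham mice the vertebral plate over the tenth thoracic segment was removed and the cord was not struck. In the SCI mice the exposed cord was struck on its dorsal surface by an impactor, and DMSO, the vehicle of the drug given to the third group, was injected into the abdomen. According to the methods of the study the segment of cord around the injury was taken, and RNA with a poly(A) tail was sequenced. The labels name both groups as control for treatment and do not mention DMSO for the SCI mice, and no label mentions an injection for the Sham mice, so that injury and vehicle cannot be told apart here. The third group, contused and given the phospholipase D inhibitor FIPI, entered only the filter, the scaling and the estimate of the spread between mice. The comparison addresses how the cord of mice given a contusion and the vehicle differed from that of sham mice, in the same RNA measurement in which the study examined the drug.

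A contusion kills neurons and glia at the point of impact and opens the vessels. In the following days blood monocytes enter and become macrophages beside the resident microglia, and together they take up cell debris and myelin, whose lipid they store or export. Astrocytes around the lesion enlarge and build filaments, fibroblast-like cells lay down collagen in the core, and oligodendrocyte precursors divide. These processes are known to overlap in time about a week after injury. Bulk RNA of a cord segment holds all these cells together, so that for a gene that fell, fewer cells of a type and less RNA per cell cannot be told apart, and the same is true of more cells and more RNA per cell for a gene that rose.

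The libraries of the Sham mice held 20806000 to 24016169 counts and those of the SCI mice 23981165 to 24582377, and between 25208 and 25710 genes had a count in each of the 6 mice. Of the 52550 genes deposited, 20797 had no count in any of the 6, and 18699 passed the filter on low counts and were tested. Among those tested, 819 reached the filter's level of 0.422 CPM in every SCI mouse but not in every Sham mouse and 872 in every Sham mouse but not in every SCI mouse, so that for these genes passing the filter and differing were not independent. On the first principal component of log2 expression, which held 84.1% of the variance of the 6 mice, the Sham mice lay between -79.06 and -61.6 and the SCI mice between 62.5 and 80.5. The second component held 4.74%. No label names a batch. Levels are given as CPM (counts divided by the TMM-scaled library size and given per 1000000), and between genes only as FPKM, which also divides by exonic length.

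SCI mice differed from Sham mice across much of the expressed genome, in both directions, with rises that reached further than falls. Past both limits of the study, 0.5 on the log2 fold change in either direction and 0.05 on the Benjamini-Hochberg adjusted p-value in edgeR's quasi-likelihood test, were 8780 genes, or 47.0% of those tested (here "called"). Of these 4571 were higher in SCI mice, 24.4% of the genes tested, and 4209 were lower, 22.5%. Every SCI mouse lay above or below every Sham mouse in 13192 genes, 70.5% of those tested, and in 8641 of the 8780 called. The adjusted p-value alone was under 0.05 for 12315 genes. Falls were nearly as common as rises but smaller. Rises of at least 2 on the log2 scale were seen in 1140 called genes and falls of that size in 197. Rises of at least 3 were seen in 402 genes and falls in 7, and rises of at least 4 in 131 and falls in 1. The median of all genes tested was -0.0032, the median of the genes called higher 1.24 and that of the genes called lower -1.03. For single genes with separate groups the exact two-sided permutation test gives p = 0.1, the smallest value possible with 3 mice against 3, and the adjusted p-values below all come from the edgeR model.

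**Figure D1:**
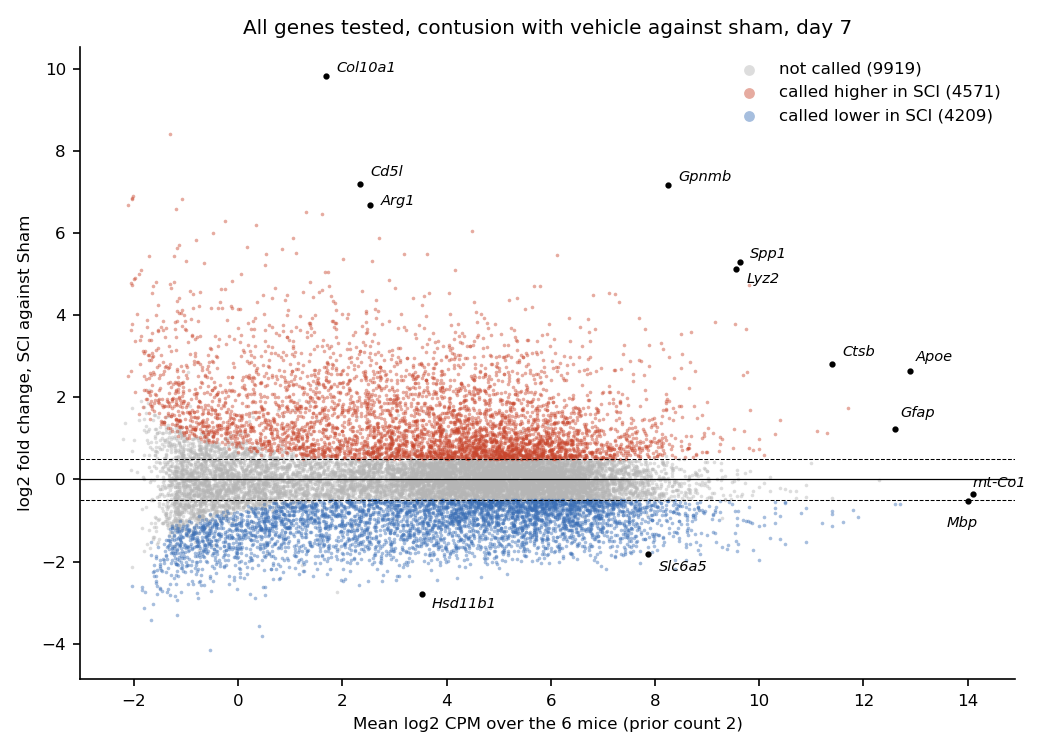
The log2 fold change between SCI and Sham mice (vertical axis) is plotted against mean log2 CPM over the 6 mice (horizontal axis) for each of the 18699 genes tested, with the 4571 called higher in red, the 4209 called lower in blue and dashed lines at the limits of 0.5. Rises reach 9.83 for Col10a1 and 7.17 for Gpnmb at far higher expression, whereas few falls pass 2.

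The shift can be read in the make-up of each library. Genes called higher took 13.1, 13.8 and 12.7% of all counts in the Sham mice and 34.1, 35.2 and 37.6% in the SCI mice (13.2 ± 0.578% and 35.6 ± 1.82%, SD, n = 3 each). Genes called lower took 40.5, 39.6 and 40.9% of all counts in the Sham mice and 21.7, 20.9 and 19% in the SCI mice (40.3 ± 0.693% and 20.5 ± 1.4%, SD, n = 3 each). The 402 genes that rose by at least 3 on the log2 scale took 0.296, 0.412 and 0.301% of all counts in the Sham mice and 4.85, 5.37 and 5.83% in the SCI mice (0.336 ± 0.0654% and 5.35 ± 0.49%, SD, n = 3 each). Transcripts of the mitochondrial genome took 5.18, 5.49 and 4.9% of all counts in the Sham mice and 3.06, 3.22 and 2.96% in the SCI mice (5.19 ± 0.294% and 3.08 ± 0.129%, SD, n = 3 each). No group overlapped the other in any of these shares, of which the first 3 describe genes chosen for their difference. The share of the 10 most abundant genes of each mouse differed little in size but without overlap, lying between 8.06% and 8.58% in the Sham mice and between 8.99% and 9.26% in the SCI mice.

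**Figure D2:**
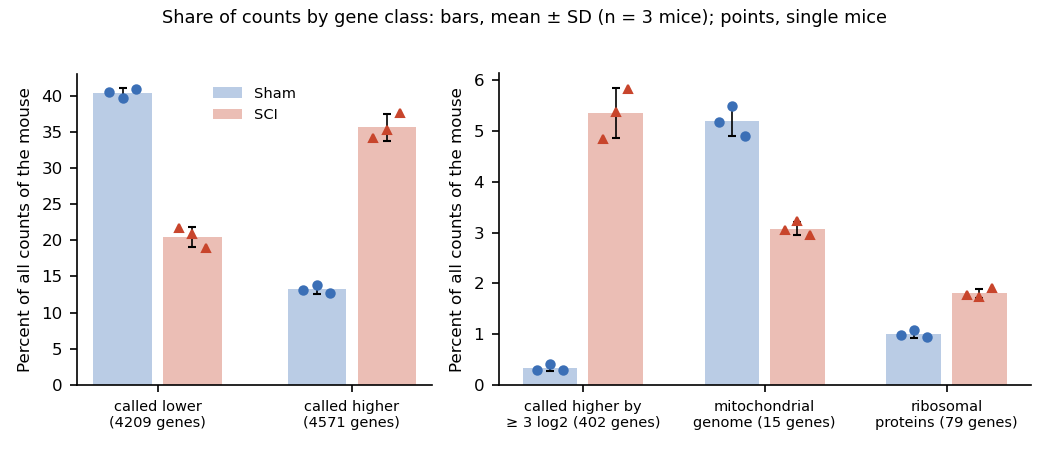
Percent of all counts of a mouse (vertical axes, from 0) held by 5 classes of genes, with bars for the mean of 3 mice, error bars for the SD and points for single mice, Sham in blue and SCI in red. Called-lower genes went from a mean of 40.3% to 20.5% and called-higher genes from 13.2% to 35.6%.

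Among genes whose mean log2 CPM was 1 or more the largest rise was that of Col10a1 (type X collagen, otherwise a product of hypertrophic cartilage, ENSMUSG00000039462, chr10:34389981-34397085). It had 4, 1 and 0 counts in the Sham mice and 1571, 1688 and 1906 in the SCI mice, so that its share of all counts was 959 times higher (95% exact interval 411 to 2950, counting error only), and its fitted log2 fold change of 9.83 (SE 0.82, adjusted p = 3.9e-05) depends on a prior count. Cd5l (ENSMUSG00000015854, chr3:87357881-87371073), a scavenger protein that macrophages secrete, had 0.766, 0.346 and 0.125 CPM in Sham and 59.5, 51.2 and 67 in SCI mice, and its log2 fold change was 7.20 (SE 0.334, adjusted p = 1.6e-07). Gpnmb (ENSMUSG00000029816, chr6:49036546-49070929), a membrane glycoprotein of phagocytes loaded with debris, had 32.7, 36.5 and 11.7 CPM in Sham and 4151, 3379 and 4077 in SCI mice, a log2 fold change of 7.17 (SE 0.551, adjusted p = 2.84e-05). For both genes the spread among Sham mice was wide, the third Sham mouse being the lowest, and every SCI mouse lay far above it. Arg1 (ENSMUSG00000019987, chr10:24915221-24927484), the arginase of alternatively activated macrophages, had 0.0958, 0.648 and 1.09 CPM in Sham and 42.2, 97 and 57 in SCI mice and a log2 fold change of 6.68 (SE 0.577, adjusted p = 4.74e-05). Htr2b, a serotonin receptor, had 0.144, 0.346 and 0.167 CPM in Sham and 22.1, 21.2 and 18.9 in SCI mice and a log2 fold change of 6.52 (SE 0.255, adjusted p = 1.2e-10). F7, clotting factor VII, had 0.0479, 1.04 and 0.0418 CPM in Sham and 36.4, 33.2 and 32.9 in SCI mice, of which Sham mouse 2 held 24 of the 26 counts in that group, and a log2 fold change of 6.46 (SE 0.587, adjusted p = 4.87e-05). Cd36, a scavenger receptor that takes up oxidised lipid, had 1.39, 6.39 and 1.5 CPM in Sham and 168, 209 and 247 in SCI mice and a log2 fold change of 6.05 (SE 0.591, adjusted p = 0.00011), again with Sham mouse 2 above the other Sham mice. The remaining members of the 10 were the endolysosomal channel gene Mcoln3 (5.89), the proton pump subunit Atp6v0d2 (5.88) and the receptor gene Cd200r4 (5.51), as log2 fold changes.

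In absolute amount the largest gains were those of genes already expressed in the uninjured cord. Apoe (ENSMUSG00000002985, chr7:19696109-19699188), the main lipid carrier of the central nervous system, had 3607, 3327 and 2486 CPM in Sham and 19509, 17246 and 21718 in SCI mice, a log2 fold change of 2.63 (SE 0.139, adjusted p = 7.02e-09). The 57-base RNA Gm23935 varied from 280 to 1892 CPM among the Sham mice and did not pass. After that RNA, Apoe and mt-Co1 had the highest mean levels per length in SCI mice, at 9000 and 8929 FPKM. This difference was smaller than the spread of Apoe among the SCI mice, so the order of the pair is not settled. Of mt-Co1, 51.1% of the sequence is shared with another annotated gene. In Sham mice mt-Co1 stood far above Apoe, at 13125 against 1481 FPKM. The lysosomal protease Ctsb had 1147, 1030 and 957 CPM in Sham and 7161, 6835 and 7914 in SCI mice and a log2 fold change of 2.81 (SE 0.111, adjusted p = 1.06e-10). Spp1 (osteopontin), a secreted matrix protein of activated phagocytes, had 136, 141 and 105 CPM in Sham and 4490, 4933 and 5601 in SCI mice and a log2 fold change of 5.30 (SE 0.319, adjusted p = 3.61e-06). Lyz2, the lysozyme of macrophages and neutrophils, had 128, 169 and 92 CPM in Sham and 4444, 4047 and 5095 in SCI mice and a log2 fold change of 5.13 (SE 0.261, adjusted p = 5.87e-07). Each of these genes was separated between the groups by several times the spread within either. Gfap, Col1a1, Psap and Gpnmb made up the rest of the 8 largest gains of CPM.

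**Figure D3:**
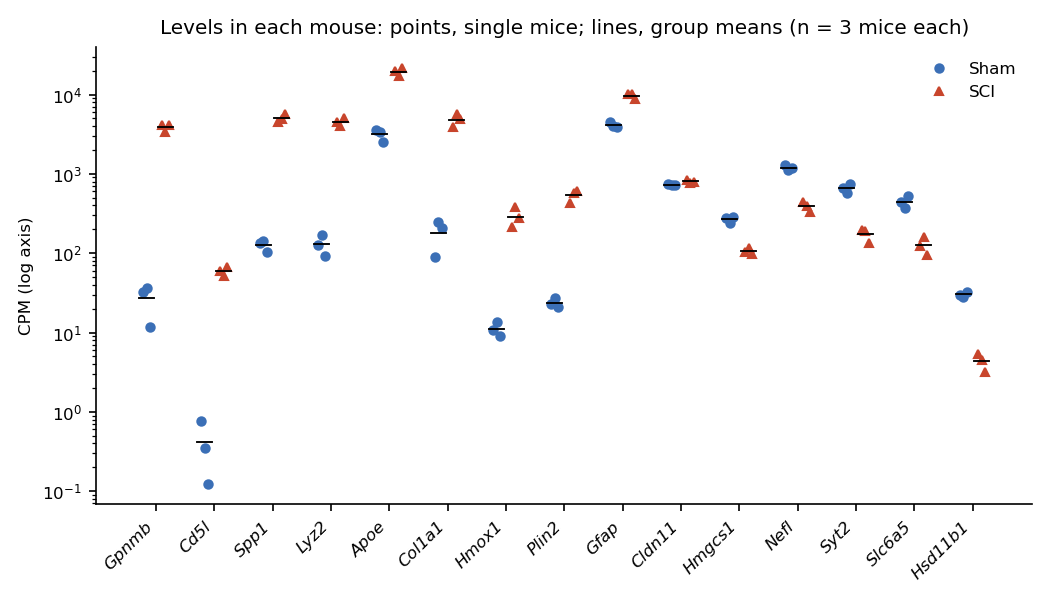
CPM on a log axis (vertical) of 15 genes named in the text (horizontal), with 1 point for each mouse, circles for Sham, triangles for SCI and lines for the means of 3 mice. Log2 fold changes run from 7.20 for Cd5l to -2.79 for Hsd11b1, with Cldn11 near 0 at 0.13, and outside Cldn11 the groups lie well apart.

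Lists of genes fixed by name were then read one after another. They held 773 genes in 54 lists, of which 751 were tested, 338 called higher and 202 lower. They were chosen with earlier results of these data known, so counts are set beside the background of 24.4% higher and 22.5% lower and carry no test of their own.

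Genes of activated phagocytes rose throughout. All 20 genes of the list of disease-associated phagocytes, a state of microglia and macrophages around damage, were called higher, with log2 fold changes from 1.21 for Csf1, a growth factor of the lineage, to 7.17 for Gpnmb and a median of 2.99. The summed level of the list went from between 4375 and 5960 CPM in Sham mice to between 38918 and 47173 in SCI mice. Ctsd, the lysosomal cathepsin D, had 268, 262 and 192 CPM in Sham and 3015, 2734 and 3448 in SCI mice and a log2 fold change of 3.67 (SE 0.148, adjusted p = 2.56e-09), with 36.6% of its sequence shared with another annotated gene. Clec7a, a receptor for fungal glucans used as a marker of this state, had 20.9, 22.1 and 12.2 CPM in Sham and 139, 143 and 191 in SCI mice and a log2 fold change of 3.10 (SE 0.272, adjusted p = 4.19e-05). Of 14 genes of monocytes and macrophages 13 were called higher, with a median of 2.86, and their summed level was 25.8 times higher in SCI mice. Cd68, a lysosomal membrane protein of macrophages, had 34.7, 35.6 and 18.1 CPM in Sham and 623, 664 and 776 in SCI mice and a log2 fold change of 4.55 (SE 0.298, adjusted p = 7.31e-06). Adgre1, which encodes the macrophage antigen F4/80, had 12.7, 17.8 and 11.1 CPM in Sham and 110, 123 and 139 in SCI mice and a log2 fold change of 3.16 (SE 0.184, adjusted p = 8.09e-07). Chil3, of which 29.4% of the sequence is shared with a related gene, had the smallest rise called, with a log2 fold change of 1.29 (SE 0.337, adjusted p = 0.00971). Ly6c2, the marker of classical monocytes, had 1.58, 2.63 and 0.836 CPM in Sham and 2.85, 13.9 and 1.56 in SCI mice and did not pass (1.86, SE 1.03, adjusted p = 0.159), SCI mouse 2 alone lying above the Sham mice by a wide margin.

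Genes that mark resting microglia did not move as a block. Called higher were 9 of 12, with a median of 1.49, and none was called lower in the fit of 9 mice. Fcrls, a receptor-like gene of resident microglia, had 46.2, 39.3 and 29.8 CPM in Sham and 248, 298 and 337 in SCI mice and a log2 fold change of 2.94 (SE 0.179, adjusted p = 1.11e-06). Csf1r, the receptor on which microglia depend, had 189, 160 and 149 CPM in Sham and 440, 503 and 513 in SCI mice and a log2 fold change of 1.55 (SE 0.0886, adjusted p = 2.11e-09). In contrast P2ry12, the purine receptor that ramified microglia use to sense injury, had 28.9, 26.6 and 25.6 CPM in Sham and 23.8, 32 and 27.6 in SCI mice, with overlapping groups (log2 fold change 0.044, SE 0.0994, adjusted p = 0.719). Sall1, a transcription factor of resident microglia, was at 0.083 and did not pass. Siglech had 17.6, 12.2 and 11.2 CPM in Sham and 10.8, 10.9 and 5.82 in SCI mice (-0.57, SE 0.244, adjusted p = 0.0652), with every SCI mouse below every Sham mouse. Without 1 mouse Siglech (-0.71 to -0.69 without Sham mouse 3 or SCI mouse 2) passed. In other fits Siglech (-0.67 to -0.55 with upper-quartile scaling, no filter on low counts, offsets for GC content and length, DESeq2 in 9 or 6 mice or limma-voom) passed.

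Genes by which phagocytes recognise and attack targets also rose. All 6 subunits of the phagocyte NADPH oxidase, which makes superoxide, were called higher, up to 3.79 for Cyba, with a median of 3.09. Cyba had 18.3, 19.7 and 12.8 CPM in Sham and 219, 226 and 257 in SCI mice. Rac2 and Ncf1 rose by 3.20 and 2.76 on the log2 scale. Of 22 genes of pattern recognition and Fc receptor signaling 21 were called higher, with a median of 2.66. Fcer1g, the signaling chain shared by Fc receptors, had 17, 20.6 and 13 CPM in Sham and 183, 182 and 216 in SCI mice and a log2 fold change of 3.52 (SE 0.143, adjusted p = 9.59e-09). Unc93b1, which carries nucleic acid sensors to endosomes, had 41.7, 45.8 and 31.9 CPM in Sham and 233, 237 and 287 in SCI mice and a log2 fold change of 2.67 (SE 0.136, adjusted p = 4.98e-08). The largest rise was that of Tlr8, a sensor of RNA, from 8, 19 and 5 counts in Sham to 267, 310 and 389 in SCI mice (4.82, SE 0.39, adjusted p = 1.77e-06). The exception was Tlr3, the sensor of double-stranded RNA, which had 24, 24.4 and 24.9 CPM in Sham and 25.5, 26.3 and 25.8 in SCI mice and a log2 fold change of 0.079 (SE 0.0701, adjusted p = 0.337), the 95% interval being -0.071 to 0.23.

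Complement and antigen presentation rose in nearly all their members. Called higher were 11 of 13 complement genes tested, with a median of 1.94, and none was called lower. The 3 chains of C1q, which starts the classical pathway, rose together: C1qa had 147, 137 and 97.6 CPM in Sham and 971, 991 and 1228 in SCI mice and a log2 fold change of 3.06 (SE 0.164, adjusted p = 1.21e-07), and C1qb and C1qc rose by 3.17 and 3.33. The receptor for the anaphylatoxin C5a, C5ar1, had the largest rise of the list, with 2.73, 4.58 and 3.05 CPM in Sham and 63.4, 90.2 and 87.3 in SCI mice (4.53, SE 0.223, adjusted p = 2.02e-07). Cd55, which breaks down complement convertases, had 8.96, 14 and 13.2 CPM in Sham and 10, 8.72 and 11.3 in SCI mice and did not pass (-0.27, SE 0.228, adjusted p = 0.322), and neither did C2. Cfb had at most 5 counts in a mouse and was not tested. All 11 genes of MHC class I presentation were called higher, with a median of 1.67. B2m, the light chain, had 182, 261 and 156 CPM in Sham and 488, 566 and 574 in SCI mice (1.44, SE 0.174, adjusted p = 9.49e-05), and the heavy chain gene H2-D1 had a log2 fold change of 1.80. The proteasome subunits bracketed the list, Psmb8 at 2.05 and Psmb10 at 0.51, just past the limit. Of 9 genes of MHC class II presentation 8 were called higher, with a median of 2.06. Ctss, the protease that processes the invariant chain, had 196, 199 and 130 CPM in Sham and 1068, 1108 and 1124 in SCI mice (2.65, SE 0.173, adjusted p = 8.25e-07), Cd74, the invariant chain itself, a log2 fold change of 1.85, and H2-Eb1 a log2 fold change of 2.11. H2-Oa, a modulator of peptide loading, was below 1.2 CPM in every mouse and did not pass. The call lost without 1 mouse was that of Psmb10 (0.45 to 0.50 without Sham mouse 2 or 3). The call of Psmb10 (0.19 to 0.44 with upper-quartile scaling or offsets for GC content and length) was also lost in other fits.

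Most chemokine and cytokine genes that could be measured were higher, from low levels. Of 19 chemokine and receptor genes tested 15 were called higher and 1 lower, with a median of 2.26. Ccl2, which draws monocytes, had 0.958, 1.43 and 0.334 CPM in Sham and 12.4, 20.8 and 14.4 in SCI mice and a log2 fold change of 4.13 (SE 0.351, adjusted p = 2.62e-06). Ccl8 had 1 count in each Sham mouse and 40, 21 and 28 in the SCI mice, a ratio of shares of all counts of 27.5 (95% exact interval 9.12 to 136). It lay under the filter level in every Sham mouse, and for such genes passing the filter and being higher were not independent. Cxcr4, the receptor of Cxcl12, had 6.37, 5.36 and 4.35 CPM in Sham and 42, 50.2 and 63.4 in SCI mice (3.28, SE 0.192, adjusted p = 2e-07) and Ccl6 a log2 fold change of 2.10. The member called lower was Cx3cl1 (fractalkine), a chemokine of neurons, with 200, 187 and 210 CPM in Sham and 97.6, 88 and 88.3 in SCI mice (-1.12, SE 0.0625, adjusted p = 1.33e-09), and it was the chemokine with the highest level per length in Sham mice, at 51 FPKM. Among cytokines 8 of the 11 tested were called higher and 1 lower, with a median of 2.38 (1.7 with at least 10 counts in every mouse). Tnf had 5, 11 and 10 counts in the Sham mice and 48, 101 and 78 in the SCI mice (3.03, SE 0.358, adjusted p = 2.78e-06). Tgfb1 had 17, 17.2 and 14.8 CPM in Sham and 113, 137 and 151 in SCI mice (3.03, SE 0.115, adjusted p = 7.42e-10) and Il1rn, the interleukin 1 receptor antagonist, a log2 fold change of 4.06. Il4 had 17.6, 19.7 and 16 CPM in Sham and 9.48, 9.8 and 8.18 in SCI mice and was called lower (-0.96, SE 0.113, adjusted p = 2.71e-06). Il33 and Il18 were not called. Il6, Il10, Csf2, Il13 and Ifng had between 0 and 10 counts in any mouse and were not tested. Il10 had 0 counts in all Sham mice and 3, 6 and 10 in the SCI mice.

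Interferon-stimulated genes rose in part. Called higher were 10 of 19, with a median of 1.12, and none was called lower. Between 4 and 10 were called with a mouse left out, 4 without SCI mouse 1 and 5 without SCI mouse 2 or Sham mouse 3. Bst2 (tetherin) had 11.2, 17.4 and 7.98 CPM in Sham and 67.5, 67.2 and 63.3 in SCI mice and a log2 fold change of 2.44 (SE 0.229, adjusted p = 3.24e-05), with the groups far apart. Irf7, the master regulator of the response, had 14.9, 14.4 and 5.77 CPM in Sham and 35.7, 65.1 and 14.6 in SCI mice, and the groups overlapped (1.72, SE 0.6, adjusted p = 0.0418). Ifit3, of which 51.2% of the sequence is shared with Ifit3b, had 37.5, 30.1 and 16.8 CPM in Sham and 39.5, 42.5 and 16.8 in SCI mice (0.23, SE 0.437, adjusted p = 0.668) and Ifi27l2a a log2 fold change of 1.12. In all 4 of these genes SCI mouse 3 and Sham mouse 3 were the lowest of their groups. Calls lost without 1 mouse were those of Irf7 (1.11 to 1.93 without Sham mouse 1 or 2 or 3 or SCI mouse 1 or 2) and Ifi27l2a (1.0 to 1.02 without Sham mouse 1 or SCI mouse 1). The call of Irf7 (1.45 to 1.75 with no filter on low counts, offsets for GC content and length or edgeR in the 6 mice) was also lost in other fits.

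Lysosomal genes and genes of lipid uptake rose, and genes of cholesterol synthesis fell. Of 22 lysosomal genes 20 were called higher and 1 lower, with a median of 1.94. Psap, the precursor of the saposins that help degrade sphingolipids, had 1889, 1874 and 1774 CPM in Sham and 6169, 5849 and 6509 in SCI mice (1.74, SE 0.096, adjusted p = 1.25e-09). The asparaginyl protease gene Lgmn had 287, 258 and 250 CPM in Sham and 924, 962 and 1053 in SCI mice (1.89, SE 0.0977, adjusted p = 1.19e-09). Within the proton pump the subunits moved apart: Atp6v0d2, the form of macrophages and osteoclasts, had 0.623, 1.6 and 0.376 CPM in Sham and 53.5, 45.5 and 55 in SCI mice (5.88, SE 0.415, adjusted p = 9e-06), whereas Atp6v1a, the widely expressed catalytic subunit, had a log2 fold change of -0.54. All 9 genes of lipid uptake, storage and efflux were called higher, with a median of 1.64. Plin2, which coats lipid droplets, had 23.2, 26.9 and 21 CPM in Sham and 428, 570 and 608 in SCI mice (4.50, SE 0.24, adjusted p = 1.18e-06). The efflux pump Abca1 had 108, 86.8 and 80.8 CPM in Sham and 552, 592 and 721 in SCI mice (2.76, SE 0.183, adjusted p = 1.75e-06) and the uptake receptor Lrp1 a log2 fold change of 1.10. Cholesterol synthesis went the other way, with 19 of 22 genes called lower, none higher, and a median of -1.16. Hmgcs1, an early enzyme of the pathway, had 274, 242 and 283 CPM in Sham and 103, 115 and 99 in SCI mice (-1.33, SE 0.0786, adjusted p = 2.34e-09). Srebf2, the transcription factor that drives the pathway, had 256, 227 and 250 CPM in Sham and 140, 143 and 133 in SCI mice (-0.82, SE 0.0723, adjusted p = 1.28e-07). Idi1 fell most (-1.77, SE 0.132, adjusted p = 3.57e-08), and Ebp, with 26.3, 24.1 and 23.4 CPM in Sham and 28.2, 25.1 and 30.2 in SCI mice, did not pass (0.18, SE 0.091, adjusted p = 0.0957). In these SCI mice the neuronal and myelin markers were lower too (below), and their part in the fall of cholesterol synthesis was not tested. The call lost without 1 mouse was that of Atp6v1a (-0.47 without Sham mouse 3).

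Genes of the cell cycle rose almost together, from low levels. Of 34 genes 32 were called higher, none lower, with a median of 2.55, and 33 were separated between the groups, against 70.5% of all genes. Cdc20, an activator of the anaphase-promoting complex, had 2.92, 2.51 and 2.55 CPM in Sham and 21.1, 21.3 and 23.1 in SCI mice and a log2 fold change of 3.04 (SE 0.106, adjusted p = 3.62e-11). Bub1, a kinase of the spindle checkpoint, had 0.24, 0.821 and 0.836 CPM in Sham and 6.08, 9.72 and 8.27 in SCI mice (3.63, SE 0.304, adjusted p = 1.65e-07), the largest rise of the list. Pcna, the sliding clamp of replication, had 47.2, 49.8 and 46.1 CPM in Sham and 79.3, 95.1 and 94.2 in SCI mice (0.91, SE 0.0881, adjusted p = 5.36e-07), with 31.8% of its sequence shared with a pseudogene, and the cyclin Ccnd1 a log2 fold change of 1.24. Ccne1, a cyclin of the entry into S phase, had 14.1, 11.9 and 14 CPM in Sham and 8.97, 9.3 and 10.5 in SCI mice, lower in each SCI mouse, and did not pass the fold limit (-0.47, SE 0.11, adjusted p = 0.00148). Without 1 mouse Ccne1 (-0.55 to -0.54 without Sham mouse 2 or SCI mouse 3) passed. In other fits Ccne1 (-0.77 to -0.54 with upper-quartile scaling or offsets for GC content and length) passed.

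The promoters of these genes are shown because a list that moves together can share letters. Promoters of mitotic genes are known for CCAAT boxes and for an element called CHR, whose core is TTTGAA. In the 250 bases before the RefSeq start of the gene (GRCm38.p6), read on both strands, CCAAT was found in 21 of the 26 promoters at hand for the list, 80.8%, against 34.5% of 27025 promoters of the same length. TTTGAA was found in 8 of the 26, 30.8%, against 16.3% of all, and the 8 also held CCAAT, against 5.73% of all that held both. The 3 promoters below are those with both motifs and the largest rises, apart from genes on a chromosome left out of the choice. Capitals mark CCAAT or its reverse complement ATTGG and TTTGAA or its reverse complement TTCAAA, which overlap nowhere with each other, while in Ube2c a CCAAT overlaps an ATTGG. The log2 fold changes were 3.59 for Cdk1, the kinase of mitotic entry, 3.33 for Top2a, which untangles DNA, and 3.32 for Ube2c, a ubiquitin enzyme of the anaphase-promoting complex.
Cdk1 (chr10:69352913-69353162, reverse strand): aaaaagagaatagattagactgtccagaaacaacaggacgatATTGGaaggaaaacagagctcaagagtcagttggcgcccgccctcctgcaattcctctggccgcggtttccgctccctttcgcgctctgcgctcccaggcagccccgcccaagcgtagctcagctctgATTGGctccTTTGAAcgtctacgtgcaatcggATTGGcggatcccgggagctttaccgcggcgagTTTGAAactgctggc
Top2a (chr11:99024190-99024439, reverse strand): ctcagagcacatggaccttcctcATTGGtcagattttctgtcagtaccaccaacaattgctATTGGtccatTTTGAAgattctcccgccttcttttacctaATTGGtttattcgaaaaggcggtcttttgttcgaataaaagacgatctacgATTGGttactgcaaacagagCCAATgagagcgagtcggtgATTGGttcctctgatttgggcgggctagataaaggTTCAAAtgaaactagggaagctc
Ube2c (chr2:164769679-164769928, forward strand): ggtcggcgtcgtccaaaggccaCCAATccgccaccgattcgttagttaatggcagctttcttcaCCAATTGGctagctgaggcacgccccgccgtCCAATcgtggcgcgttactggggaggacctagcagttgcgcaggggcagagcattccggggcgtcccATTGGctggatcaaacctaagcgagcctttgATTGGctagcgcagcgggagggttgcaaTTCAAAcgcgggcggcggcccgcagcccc

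Promoters of macrophage genes are known to bind the factor PU.1 at sites around GAGGAA. That motif was found in 5 of 10 promoters at hand of the monocyte and macrophage list, in 8 of 18 of the pattern and Fc receptor list (44.4%) and in 2 of 7 of the resting microglia list (28.6%), against 23.1% of all promoters. These lists are small, and a match is a description of the letters and not of binding. The 3 below have the largest rises among the promoters with the motif that were open to choice, 2 on the pattern list and 1 on the macrophage list. Genes on the chromosome left out of the previous choice were left out here too, whatever their rise. GAGGAA or its reverse complement TTCCTC is in capitals. Tlr8 was described above, Fcgr4 encodes an Fc receptor (log2 fold change 3.94) and Cd68 the macrophage antigen (4.55).
Tlr8 (chrX:167264330-167264579, reverse strand): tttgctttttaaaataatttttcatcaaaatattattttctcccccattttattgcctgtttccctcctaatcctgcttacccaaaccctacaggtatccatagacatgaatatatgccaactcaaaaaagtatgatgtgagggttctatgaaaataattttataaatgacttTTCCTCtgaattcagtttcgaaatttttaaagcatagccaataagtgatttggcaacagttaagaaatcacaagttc
Fcgr4 (chr1:171018676-171018925, forward strand): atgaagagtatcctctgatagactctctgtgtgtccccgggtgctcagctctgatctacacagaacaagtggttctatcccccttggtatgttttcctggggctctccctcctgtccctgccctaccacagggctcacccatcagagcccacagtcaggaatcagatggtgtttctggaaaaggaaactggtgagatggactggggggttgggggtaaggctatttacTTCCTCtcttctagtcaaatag
Cd68 (chr11:69666171-69666420, reverse strand): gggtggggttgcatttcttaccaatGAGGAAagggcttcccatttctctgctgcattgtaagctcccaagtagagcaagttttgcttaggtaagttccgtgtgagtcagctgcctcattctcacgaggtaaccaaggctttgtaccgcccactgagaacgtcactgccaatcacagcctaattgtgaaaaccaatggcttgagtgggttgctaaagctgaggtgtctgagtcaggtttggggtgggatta

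Targets of p53, the factor of the DNA damage response, rose modestly in 10 of 14 cases, with 1 called lower and a median of 0.94. Cdkn1a, the cell cycle inhibitor p21, had 33.9, 40.8 and 52 CPM in Sham and 101, 133 and 103 in SCI mice (1.41, SE 0.176, adjusted p = 0.000152). Gdf15, a stress-induced hormone, had 0.91, 0.346 and 0.46 CPM in Sham and 10, 9.47 and 17.7 in SCI mice (4.45, SE 0.44, adjusted p = 1.58e-05), and Ccng1 a log2 fold change of 0.97. Zmat3 was called lower, with 124, 116 and 139 CPM in Sham and 83.3, 92.6 and 75.9 in SCI mice (-0.59, SE 0.0804, adjusted p = 1.32e-05). The call of Zmat3 (-0.45 with offsets for GC content and length) was lost in another fit.

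Collagen and matrix genes of fibroblasts rose in all 16 members, with a median of 2.90 and a range from 1.17 to 4.73. Col1a1, a chain of type I collagen, had 90.5, 244 and 209 CPM in Sham and 3897, 5673 and 4862 in SCI mice and a log2 fold change of 4.73 (SE 0.43, adjusted p = 6.29e-05). Col3a1 had 42.1, 236 and 235 CPM in Sham and 2092, 2521 and 2758 in SCI mice (3.84, SE 0.646, adjusted p = 0.00183). In both genes Sham mouse 1 lay well under the other Sham mice, and the SCI mice lay far above all. Sparc, a collagen-binding protein that glia and vessels also make, had 1580, 1493 and 1427 CPM in Sham and 3294, 3498 and 3302 in SCI mice (1.17, SE 0.0742, adjusted p = 4.76e-09). Among pericyte and smooth muscle genes 6 of the 9 tested were called higher, none lower, with a median of 0.93. Anpep, which fibroblasts and macrophages also carry, had the largest rise, with 4.74, 11.9 and 8.02 CPM in Sham and 161, 166 and 185 in SCI mice (4.36, SE 0.277, adjusted p = 5.78e-06). The contractile gene Acta2 had 19.6, 16.7 and 18.2 CPM in Sham and 84.5, 146 and 88 in SCI mice (2.55, SE 0.261, adjusted p = 9.38e-05) and Rgs5, a marker of pericytes, a log2 fold change of 0.93. Abcc9, a channel subunit of pericytes, did not pass (-0.11, SE 0.0959, adjusted p = 0.307).

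Proteases that remodel the matrix rose in 12 of 15 members, with none lower and a median of 2.55. Mmp14, a membrane protease, had 48.5, 54.7 and 60.1 CPM in Sham and 456, 581 and 553 in SCI mice (3.28, SE 0.129, adjusted p = 2.04e-09). Adam8, a protease of leukocytes, had 8.91, 12.2 and 8.86 CPM in Sham and 222, 316 and 254 in SCI mice (4.72, SE 0.231, adjusted p = 6.32e-07), and the inhibitor Timp2 a log2 fold change of 0.70. Timp4 did not pass (-0.075, SE 0.0845, adjusted p = 0.451, 95% interval -0.26 to 0.11). In TGF-beta and BMP signaling 10 of 15 were called higher and none lower, with a median of 0.81. The target gene Id3 had 47.5, 53.2 and 50.9 CPM in Sham and 157, 161 and 185 in SCI mice (1.73, SE 0.0718, adjusted p = 1.11e-10), and Tgfbi and Id1 rose by 2.73 and 1.36 on the log2 scale. The call of Timp2 (0.41 with offsets for GC content and length) was lost in another fit.

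Proteoglycans and perineuronal nets, the matrix around neurons, split. Called higher were 4 of 10 genes and called lower 2, with a median of -0.23, beside 24.4% higher and 22.5% lower of all genes tested. The proteoglycan gene Vcan had 38.4, 39.9 and 39.5 CPM in Sham and 111, 135 and 122 in SCI mice (1.65, SE 0.0831, adjusted p = 6.6e-10), Ncan and the hyaluronan synthase Has2 rose by 0.63 and 2.19 on the log2 scale, and Tnc (tenascin C) was also called higher. The link proteins of the nets fell, Hapln4 with 231, 195 and 239 CPM in Sham and 66.5, 66.3 and 47.9 in SCI mice (-1.88, SE 0.136, adjusted p = 9.84e-07) and Hapln1 with a log2 fold change of -2.44. Bcan had 526, 460 and 481 CPM in Sham and 396, 354 and 317 in SCI mice and missed the fold limit (-0.46, SE 0.082, adjusted p = 0.000167). With offsets for GC content and length 4 genes were called lower. Without 1 mouse Bcan (-0.54 to -0.50 without Sham mouse 2 or SCI mouse 1) passed. The call of Ncan (0.47 with offsets for GC content and length) was lost in another fit. In other fits Bcan (-0.66 to -0.52 with upper-quartile scaling or offsets for GC content and length) passed.

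Genes of reactive astrocytes rose in 17 of 19 members, with none lower and a median of 1.76. Gfap, whose filament protein the study stained in sections weeks later, had 4453, 4040 and 3913 CPM in Sham and 10020, 10023 and 8818 in SCI mice and a log2 fold change of 1.22 (SE 0.0805, adjusted p = 6.83e-09). Vim, a second filament protein that other cells of the lesion also make, had 399, 318 and 308 CPM in Sham and 1916, 2053 and 1986 in SCI mice (2.54, SE 0.095, adjusted p = 5.19e-11). The secreted protease inhibitor Serpina3n had 265, 193 and 118 CPM in Sham and 847, 989 and 870 in SCI mice (2.23, SE 0.286, adjusted p = 0.000356) and Emp1 a log2 fold change of 3.24. Cxcl10 had 5.27, 12.3 and 1.38 CPM in Sham and 6.33, 17.5 and 5.82 in SCI mice, and its groups overlapped (0.65, SE 0.78, adjusted p = 0.495). Lcn2 did not pass either (1.17, SE 0.462, adjusted p = 0.0601). The transport and junction genes of resting astrocytes moved in both directions, with 2 of 15 called higher, 6 called lower and a median of -0.45. Aqp4, the water channel of astrocyte endfeet, had 840, 867 and 901 CPM in Sham and 1254, 1488 and 1213 in SCI mice (0.60, SE 0.0842, adjusted p = 1.65e-05) and Aldh1l1 a log2 fold change of 0.53. The GABA transporter Slc6a11 had 577, 547 and 619 CPM in Sham and 239, 236 and 175 in SCI mice (-1.42, SE 0.116, adjusted p = 5.28e-07). Aldoc had 1774, 1684 and 1699 CPM in Sham and 1296, 1191 and 1053 in SCI mice (-0.54, SE 0.0793, adjusted p = 2.47e-05). Without SCI mouse 3 the number called lower was 3, and without Sham mouse 3 the number called higher was 1. Calls lost without 1 mouse were those of Aldh1l1 (0.49 without Sham mouse 3) and Aldoc (-0.46 without SCI mouse 3). The call of Aldh1l1 (0.25 to 0.46 with upper-quartile scaling or offsets for GC content and length) was also lost in other fits. In other fits Lcn2 (1.17 to 1.27 with edgeR in the 6 mice, DESeq2 in 9 or 6 mice or limma-voom) passed.

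Myelin genes fell moderately. Of 19 genes of mature oligodendrocytes 11 were called lower, none higher, with a median of -0.60, and their summed level went from between 35607 and 37273 CPM to between 25019 and 27952. Mbp, whose protein the study stained weeks later, had 20123, 19012 and 19075 CPM in Sham and 15764, 15367 and 14266 in SCI mice and did not reach the fold limit (-0.36, SE 0.0837, adjusted p = 0.00157, 95% interval -0.54 to -0.18). Ermn, a late marker of differentiation, fell most, with 246, 258 and 275 CPM in Sham and 120, 112 and 98.4 in SCI mice (-1.24, SE 0.0721, adjusted p = 2.02e-09). Cldn11, the tight junction protein of myelin, had 748, 725 and 716 CPM in Sham and 836, 765 and 800 in SCI mice and was slightly higher in each SCI mouse without passing (0.13, SE 0.079, adjusted p = 0.151). Precursor genes were near balance, with 3 of 13 called higher, 1 lower and a median of 0.19. Cspg4 (NG2), which pericytes also carry, had 40.6, 34.1 and 35.6 CPM in Sham and 88.9, 105 and 99.9 in SCI mice (1.41, SE 0.0859, adjusted p = 3.87e-09), and Pdgfra and Gpr17 were also called higher. The lineage factors stayed nearer 0, Olig1 at 370, 317 and 321 CPM in Sham and 352, 319 and 299 in SCI mice (-0.053, SE 0.0952, adjusted p = 0.641) and Sox10 at a log2 fold change of 0.24. Ptprz1 was called lower (-0.53, SE 0.0782, adjusted p = 2.63e-05). The call lost without 1 mouse was that of Ptprz1 (-0.50 to -0.47 without SCI mouse 1 or 3). The call of Ptprz1 (-0.30 with offsets for GC content and length) was also lost in other fits.

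Of 16 endothelial genes 6 were called higher, none lower, and 10 did not pass, with a median of 0.37, under the fold limit. Cldn5, the tight junction protein of the barrier, had 53.6, 55.1 and 55.1 CPM in Sham and 128, 111 and 119 in SCI mice (1.13, SE 0.091, adjusted p = 1.24e-07), and Cdh5, the junction cadherin, a log2 fold change of 1.88. The others called higher were Vwf, Pecam1, Kdr and Plvap. The glucose transporter Slc2a1 had 165, 168 and 175 CPM in Sham and 231, 288 and 170 in SCI mice, with SCI mouse 3 inside the Sham range (0.44, SE 0.165, adjusted p = 0.045). Without 1 mouse Slc2a1 (0.62 without SCI mouse 3) passed.

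**Figure D4:**
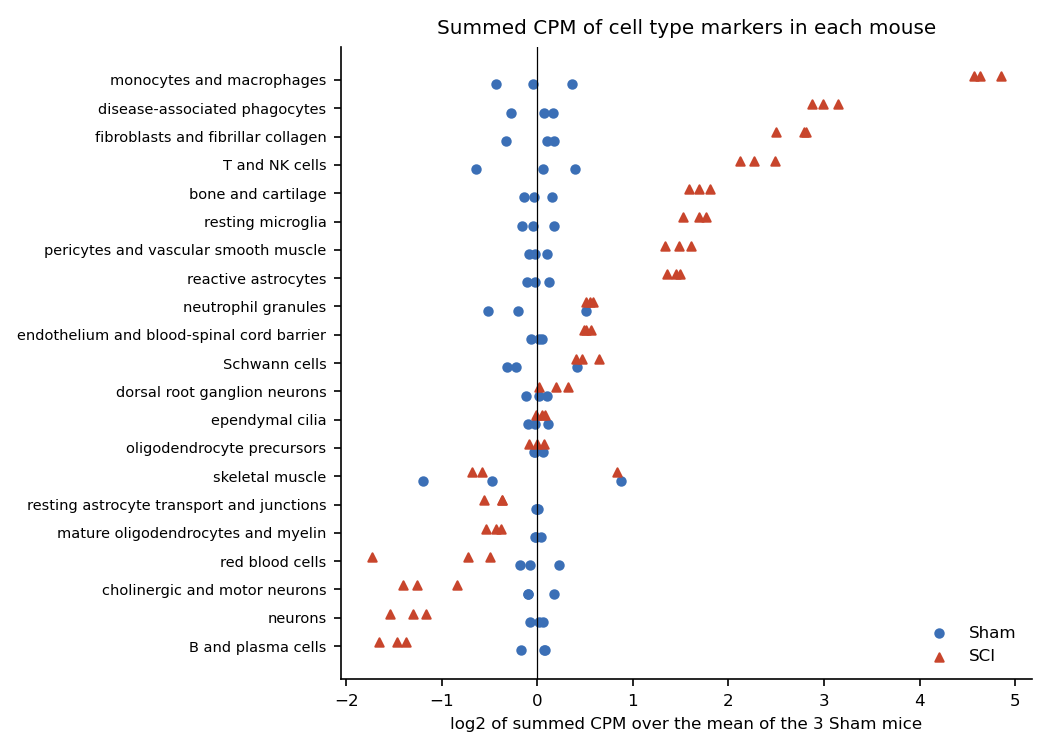
The log2 ratio of the summed CPM of each of 21 cell type marker lists to the mean of the 3 Sham mice (horizontal axis) for every mouse, Sham as circles and SCI as triangles. Monocyte, phagocyte and fibroblast markers lie furthest to the right and markers of neurons and of B and plasma cells furthest to the left, while muscle, ciliary and precursor markers overlap. The sum for B and plasma cells is mostly that of Ighm.

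All 16 neuronal marker genes fell, with log2 fold changes from -2.02 for Elavl4 to -0.52 for Uchl1, with a median of -1.33, and their summed level went from between 11964 and 13130 CPM in Sham to between 4331 and 5636 in SCI mice. The neurofilament gene Nefm had 2380, 2008 and 2228 CPM in Sham and 976, 791 and 635 in SCI mice and a log2 fold change of -1.46 (SE 0.147, adjusted p = 7.82e-06). Nefl, with 32.8% of its exons overlapping Nefm on the other strand, had 1279, 1106 and 1168 CPM in Sham and 446, 398 and 326 in SCI mice (-1.60, SE 0.118, adjusted p = 1.55e-07), and Nefh, the heavy chain whose protein the study stained as NF200 weeks later, a log2 fold change of -1.31. The RNA-binding protein gene Elavl4 had 59.2, 61.5 and 65.1 CPM in Sham and 16.7, 15.7 and 13.2 in SCI mice (-2.02, SE 0.109, adjusted p = 1.66e-09). In most of these genes SCI mouse 3 was the lowest and SCI mouse 1 the highest of the group, and every SCI mouse lay below every Sham mouse. Of 8 genes of cholinergic and motor neurons 7 were called lower, with a median of -1.06. The choline transporter Slc5a7 had 80.8, 65.5 and 63.4 CPM in Sham and 22.6, 16.5 and 13.7 in SCI mice (-1.99, SE 0.189, adjusted p = 1.78e-05), Ache a log2 fold change of -1.19 and the vesicular transporter Slc18a3 a log2 fold change of -1.10. Prph, the filament of motor and sensory neurons, had 70.3, 56.9 and 46.7 CPM in Sham and 54.1, 34.6 and 35.6 in SCI mice with overlapping groups (-0.48, SE 0.24, adjusted p = 0.119). Without SCI mouse 3 the number called lower was 4. Calls lost without 1 mouse were those of Uchl1 (-0.47 to -0.46 without Sham mouse 1 or SCI mouse 3) and Slc18a3 (-1.0 without SCI mouse 3). Without 1 mouse Prph (-0.72 without SCI mouse 1) passed. The call of Uchl1 (-0.49 with no filter on low counts) was also lost in other fits. In other fits Prph (-0.72 with offsets for GC content and length) passed.

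Inhibitory transmission showed the lowest median of the 54 lists. All 16 genes of GABA and glycine transmission were called lower, with a median of -1.74. The glycine transporter Slc6a5 had 436, 376 and 530 CPM in Sham and 125, 160 and 96 in SCI mice (-1.82, SE 0.215, adjusted p = 0.000166), and Slc32a1, which loads both transmitters into vesicles, a log2 fold change of -1.73. The receptor subunit Gabrb2 had 15.5, 10.7 and 22.1 CPM in Sham and 3.02, 2.73 and 2.95 in SCI mice (-2.47, SE 0.274, adjusted p = 1.42e-05), and the scaffold Gphn 69.7, 63.4 and 74 CPM in Sham and 39.4, 37.8 and 35.5 in SCI mice, the smallest fall (-0.88, SE 0.075, adjusted p = 9.14e-08). In glutamate transmission 15 of 16 were called lower, with a median of -1.49. The vesicular transporter Slc17a6 had 156, 160 and 185 CPM in Sham and 46.7, 50.4 and 37.7 in SCI mice (-1.89, SE 0.11, adjusted p = 2.79e-08), the receptor subunit Gria1 a log2 fold change of -0.93 and the scaffold Shank1 a log2 fold change of -1.21. Slc17a7, the transporter of cortical and sensory neurons, had 3.16, 4.02 and 7.19 CPM in Sham and 0.335, 0.207 and 0.464 in SCI mice, with few counts in the SCI mice (-3.82, SE 0.448, adjusted p = 6.74e-06). Homer1 was the gene not called.

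Genes of vesicle release and excitability fell as well. Of 20 genes of vesicle release 19 were called lower, with a median of -1.55. The calcium sensor Syt2 had 665, 580 and 750 CPM in Sham and 194, 189 and 134 in SCI mice (-1.95, SE 0.158, adjusted p = 3.68e-06) and Cplx1 a log2 fold change of -1.58. Stx1a, a syntaxin of the release complex, had 22.5, 24.2 and 21 CPM in Sham and 22.5, 22.3 and 23.8 in SCI mice (0.019, SE 0.0902, adjusted p = 0.865, 95% interval -0.17 to 0.21). Of 20 voltage-gated channel genes 19 were called lower, with a median of -1.43. The sodium channel gene Scn1a had 282, 252 and 322 CPM in Sham and 73.2, 65.7 and 49 in SCI mice (-2.19, SE 0.167, adjusted p = 4.89e-06) and its partner Scn4b a log2 fold change of -2.04. Cacna1c was the gene not called.

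Peptide genes of neurons did not all fall. Of 16, 11 were called lower and 2 higher, with a median of -0.74. Calca, the precursor of CGRP, had 32.7, 33.4 and 26.5 CPM in Sham and 11.3, 8.48 and 8.14 in SCI mice (-1.73, SE 0.137, adjusted p = 7.52e-08), Scg2 a log2 fold change of -1.09 and Pcsk1n a log2 fold change of -0.81. Crh, corticotropin-releasing hormone, had 1.44, 1.94 and 1.76 CPM in Sham and 8.01, 6.91 and 6.29 in SCI mice (2.04, SE 0.202, adjusted p = 4.32e-07), and Gal, galanin, which injured neurons are known to induce, a log2 fold change of 1.62. Genes associated with axon regeneration were called higher in 7 of 11 cases, none lower, with a median of 1.21. Atf3, a factor induced by axon injury, had 8.05, 6.26 and 3.97 CPM in Sham and 59.9, 70.9 and 74.8 in SCI mice (3.50, SE 0.23, adjusted p = 2.35e-06), Sprr1a a log2 fold change of 3.43 and Jun a log2 fold change of 1.21. Gap43, the growth cone protein, had 146, 137 and 140 CPM in Sham and 158, 175 and 156 in SCI mice and did not reach the fold limit (0.21, SE 0.0611, adjusted p = 0.00701). Immediate early genes split, with 4 of 10 called higher and 2 lower, and a median of 1.09, beside 24.4% higher and 22.5% lower of all genes tested. Junb had 22.3, 22.4 and 18 CPM in Sham and 77.3, 110 and 121 in SCI mice (2.30, SE 0.253, adjusted p = 0.000138), Fos a log2 fold change of 1.83 and Egr1 a log2 fold change of 1.01, and Ier2 was also called. Npas4 and Arc, which in neurons follow activity, were called lower, at -1.01 and -0.92. Axon guidance genes were called higher in 5 of 22 cases and lower in 9, with a median of -0.40. The receptor Nrp1 had 29.5, 31.5 and 34.6 CPM in Sham and 98.9, 106 and 135 in SCI mice (1.83, SE 0.143, adjusted p = 2.18e-06), Nrp2 a log2 fold change of 1.10, and the ligands Efnb1, Efnb2 and Ntn1 rose by 2.07, 1.10 and 0.97. Dcc, the netrin receptor, had 4.31, 3.41 and 5.39 CPM in Sham and 1.97, 1.16 and 1.31 in SCI mice (-1.56, SE 0.24, adjusted p = 3.99e-05), and Ephb1 a log2 fold change of -0.59. The call lost without 1 mouse was that of Egr1 (0.80 to 1.11 without Sham mouse 1 or 2 or 3 or SCI mouse 2 or 3). The call of Egr1 (0.76 to 1.03 with upper-quartile scaling, no filter on low counts or offsets for GC content and length) was also lost in other fits.

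Respiratory genes of the nucleus and of the mitochondrial genome were lower. Of 20 nuclear subunits of oxidative phosphorylation 11 were called lower, none higher, with a median of -0.525, and in all 20 every SCI mouse lay below every Sham mouse, against 35.0% of all genes tested. With offsets for GC content and length 18 were called. Atp5b had 1135, 1082 and 1179 CPM in Sham and 734, 725 and 659 in SCI mice (-0.68, SE 0.0672, adjusted p = 4.23e-07), Ndufa4 a log2 fold change of -0.88, and Sdhb, the smallest fall, a log2 fold change of -0.14. Of 12 genes of the mitochondrial genome tested 10 were called lower, with a median of -0.79. The transcript mt-Co1 had 20638, 20105 and 19651 CPM in Sham and 13784, 14750 and 13396 in SCI mice (-0.53, SE 0.0738, adjusted p = 1.63e-05), mt-Nd1 a log2 fold change of -0.91 and mt-Cytb a log2 fold change of -0.59. Copies in the nuclear genome share 51.1% of the sequence of mt-Co1 and 99.9% of mt-Co3, which had 35.2, 32.3 and 24.5 CPM in Sham and 26.3, 41.5 and 27.8 in SCI mice (0.058, SE 0.251, adjusted p = 0.854). The mitochondrial transcripts mt-Cytb, mt-Co1, mt-Nd1, mt-Nd2 and mt-Nd5, with Meg3, were among the 8 largest losses of CPM in the whole table. Glycolysis was mixed, with 3 of 17 called higher, 4 lower and a median of -0.119. Ldha, Hk2 and the lactate exporter Slc16a3 rose by 1.50, 1.99 and 3.20 on the log2 scale. The neuronal glucose transporter Slc2a3 had 83.8, 79.4 and 88.1 CPM in Sham and 41.8, 39.7 and 33.7 in SCI mice (-1.12, SE 0.0901, adjusted p = 7.31e-08) and Ldhb a log2 fold change of -0.87. Pfkp and Pfkm were also called lower. With offsets 7 glycolytic genes were called lower. The call lost without 1 mouse was that of mt-Co1 (-0.49 without SCI mouse 3).

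Iron and heme genes rose in 6 of 11 members tested, with 1 lower and a median of 1.02. Hmox1, which breaks down heme, had 10.9, 13.4 and 9.07 CPM in Sham and 213, 381 and 274 in SCI mice (4.70, SE 0.282, adjusted p = 4.2e-06). The ferritin heavy chain Fth1 had 5201, 5387 and 4937 CPM in Sham and 5359, 5001 and 4973 in SCI mice, with overlapping groups (-0.018, SE 0.0735, adjusted p = 0.842), whereas the light chain Ftl1 had 26, 31.4 and 21.3 CPM in Sham and 359, 290 and 389 in SCI mice (3.72, SE 0.175, adjusted p = 1.1e-07), though 78.9% of its sequence is shared with pseudogenes. Tfrc, the transferrin receptor, had 123, 127 and 114 CPM in Sham and 86.4, 68.5 and 73.7 in SCI mice (-0.67, SE 0.113, adjusted p = 0.000305). Of 12 genes of the endoplasmic reticulum and integrated stress response 6 were called higher and 1 lower, with a median of 0.47. The chaperone Hspa5 had 259, 290 and 383 CPM in Sham and 519, 589 and 478 in SCI mice (0.77, SE 0.129, adjusted p = 0.000348) and Trib3 a log2 fold change of 2.20. Asns, asparagine synthetase, had 71.3, 68.5 and 79.5 CPM in Sham and 36.4, 36.4 and 30 in SCI mice (-1.09, SE 0.0825, adjusted p = 2.62e-08). With offsets the median was 0.261 and 3 genes were called lower. Without Sham mouse 3 or SCI mouse 2 the number called lower was 2.

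The largest fall among genes whose mean log2 CPM was 1 or more was that of Hsd11b1 (ENSMUSG00000016194, chr1:193221634-193264075), the enzyme that regenerates active glucocorticoid inside cells, which had 29.9, 27.8 and 32.8 CPM in Sham and 5.37, 4.55 and 3.16 in SCI mice (-2.79, SE 0.215, adjusted p = 6.45e-07). Among targets of glucocorticoid 3 of the 8 tested were called higher and none lower, with a median of 0.48. Mt1 had 344, 422 and 270 CPM in Sham and 818, 702 and 623 in SCI mice (1.05, SE 0.167, adjusted p = 0.000476), Sgk1 a log2 fold change of 1.27 and Fkbp5 a log2 fold change of 1.35. Tsc22d3, a classical target, had 137, 144 and 153 CPM in Sham and 120, 136 and 90.2 in SCI mice and did not pass (-0.32, SE 0.159, adjusted p = 0.105). The other genes of the 10 largest falls were Ankrd34c (-2.58), the channel gene Trpc5 (-2.48), Gabrb2, Smyd1 (-2.47), Olfm3 (-2.45), Mab21l2 (-2.45), Hapln1, Stxbp5l (-2.42) and Smim17 (-2.41). Of Mab21l2, 36.0% of the exons overlap Lrba on the opposite strand. Clock genes were called lower in 7 of 14 cases and higher in 1, with a median of -0.527. The output gene Hlf had 66.4, 68.8 and 63.3 CPM in Sham and 31.7, 25.3 and 28.2 in SCI mice (-1.22, SE 0.0998, adjusted p = 1.34e-07) and Tef a log2 fold change of -0.57. The repressor gene Nr1d1 had 86.4, 89.8 and 51 CPM in Sham and 53.4, 35.3 and 27.4 in SCI mice, with overlapping groups (-0.97, SE 0.302, adjusted p = 0.0271). Per1 was the gene called higher (0.58, SE 0.179, adjusted p = 0.0218). Without SCI mouse 3 the number called lower was 4. The hour of dissection is not given in the sources used here. Calls lost without 1 mouse were those of Tef (-0.49 without SCI mouse 3), Nr1d1 (-0.90 to -0.77 without Sham mouse 1 or 2 or SCI mouse 2 or 3) and Per1 (0.43 to 0.60 without Sham mouse 1 or 2 or SCI mouse 2 or 3). Calls of Nr1d1 (-0.96 to -0.94 with no filter on low counts or edgeR in the 6 mice) and Per1 (0.40 to 0.60 with no filter on low counts or offsets for GC content and length) were also lost in other fits.

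In the phospholipase D family 3 of 6 genes were called higher and 2 lower. The study describes the drug given to the third group as an inhibitor of phospholipase D and measured Pld1 and Pld2 among these genes. Which of the 6 the drug acts on was not tested here. The lysosomal members rose most, Pld4 with 25.3, 28.7 and 20.9 CPM in Sham and 123, 125 and 140 in SCI mice (2.37, SE 0.112, adjusted p = 4.09e-09) and Pld3 with a log2 fold change of 1.53. Pld2 had 43, 43.7 and 44 CPM in Sham and 73, 82.1 and 87 in SCI mice (0.89, SE 0.0756, adjusted p = 8.78e-08). Pld1 had 22.4, 27.4 and 26.7 CPM in Sham and 38.4, 34.5 and 34.1 in SCI mice and stayed just under the fold limit (0.48, SE 0.0914, adjusted p = 0.000293). Pld5 had 15, 13.5 and 16.2 CPM in Sham and 4.53, 3.85 and 3.67 in SCI mice (-1.89, SE 0.135, adjusted p = 1.48e-08) and Pld6 a log2 fold change of -1.10. Without 1 mouse Pld1 (0.51 to 0.53 without Sham mouse 2 or 3 or SCI mouse 2 or 3) passed. In other fits Pld1 (0.50 to 0.68 with no filter on low counts or offsets for GC content and length) passed.

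Markers of cells outside the cord and of other leukocytes were at low levels, and most did not pass. Of 13 neutrophil granule genes 2 were called higher, Csf3r with 32.3, 30.4 and 23.2 CPM in Sham and 77.8, 86.1 and 86.3 in SCI mice (1.54, SE 0.108, adjusted p = 8.22e-08) and Mmp8 with a log2 fold change of 2.33, and the median was -0.052. S100a9 had 9.92, 26.8 and 9.24 CPM in Sham and 17.4, 13.6 and 13.4 in SCI mice (-0.052, SE 0.737, adjusted p = 0.955) and Ngp a log2 fold change of -0.21, Sham mouse 2 being the highest of all 6, and without that mouse the median of the list was 0.581. Of 14 genes of T and NK cells 9 were tested and 3 called higher, with a median of 0.72 (1.21 without Sham mouse 2 and 0.18 without Sham mouse 3). These were Il7r, with 1.01, 1.3 and 0.794 CPM in Sham and 22, 29.3 and 23.2 in SCI mice (4.58, SE 0.274, adjusted p = 1.27e-07), Cd5, and Cd4, which macrophages can carry as well. The T cell receptor gene Trac had 2.25, 2.33 and 1.71 CPM in Sham and 1.47, 2.85 and 2.36 in SCI mice (0.089, SE 0.265, adjusted p = 0.784) and Lck a log2 fold change of 0.12, while Cd3e, Cd3d and Cd3g had at most 27 counts in any mouse and were not tested. Of 10 genes of B and plasma cells 5 were called lower, with a median of -1.02. Ighm had 69, 59.7 and 57.9 CPM in Sham and 19.2, 16.7 and 21.1 in SCI mice (-1.71, SE 0.167, adjusted p = 1.23e-05). Without Sham mouse 2 the number was 1 and the median -0.503, and without SCI mouse 3 it was 3. Cd79a (-0.91, SE 0.378, adjusted p = 0.0466) and Ms4a1 (-1.83, SE 0.572, adjusted p = 0.011) were also called. Igkc (-0.86, adjusted p = 0.214) and Cd79b (0.37, adjusted p = 0.31) were not. The summed level of the list lay between 66.9 and 79.3 CPM in Sham and between 23.9 and 29 in SCI mice, most of it Ighm. Calls lost without 1 mouse were those of Cd79a (-0.78 to -0.48 without Sham mouse 2 or SCI mouse 2 or 3) and Ms4a1 (-1.34 without Sham mouse 2). The call of Cd79a (-0.91 to -0.86 with DESeq2 in 9 mice or limma-voom) was also lost in other fits.

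Schwann cell genes were expressed in all 6 mice. Of 10 Schwann cell genes 3 were called higher, none lower, with a median of 0.51 (0.82 without Sham mouse 2). Called higher were Ngfr, the neurotrophin receptor of injured Schwann cells, with 3.74, 5.57 and 3.89 CPM in Sham and 26.6, 14.2 and 21.6 in SCI mice (2.24, SE 0.281, adjusted p = 0.000135), and Egr2 and Gldn. Ciliary genes of ependymal cells were near 0, with 2 of 13 called higher, 1 lower and a median of -0.012. The defining factor Foxj1 had 57.5, 41.2 and 51 CPM in Sham and 52.4, 52.6 and 56.9 in SCI mice (0.11, SE 0.0959, adjusted p = 0.31). Tekt4, Cfap126 and Ccdc153, the genes called, had under 7 CPM in every mouse, and each call was lost in some fits that left out a mouse, the numbers lying between 0 and 2 for higher and between 0 and 3 for lower. Of 8 genes of dorsal root ganglion neurons 3 were tested and Avil was called higher (0.98, SE 0.24, adjusted p = 0.00225). Muscle genes differed from mouse to mouse, their summed level lying between 13.3 and 56.1 CPM in Sham and between 19 and 54.2 in SCI mice. Myh4 had 1.53, 0.0432 and 0.0836 CPM in Sham and 0.126, 9.43 and 0.169 in SCI mice (2.61, SE 1.79, adjusted p = 0.242) and Acta1 a log2 fold change of -0.37. Tnni2 was called higher (1.73, SE 0.367, adjusted p = 0.00143) and Mb lower. The lower call was lost without Sham mouse 2, SCI mouse 1 or SCI mouse 3. Of 9 genes of bone and cartilage 4 were called higher and 1 lower, with a median of 0.45 (1.39 without Sham mouse 2, 0.161 without Sham mouse 1 and 0.137 without Sham mouse 3). Beside Col10a1 these were Mmp13, with 0.144, 3.5 and 0.376 CPM in Sham and 12.5, 24.5 and 20.7 in SCI mice (3.82, SE 0.782, adjusted p = 0.00462, and 6.14 without Sham mouse 2), Phex and Col2a1. Dmp1 was called lower (-0.83, SE 0.189, adjusted p = 0.00148). The summed level of the list lay between 36 and 44 CPM in Sham and between 119 and 138 CPM in SCI mice. Bglap, a defining bone gene, was at 0.462 CPM in Sham and 0.363 CPM in SCI mice on average. Of 6 red blood cell genes none was called, with a median of -1.03. Hbb-bs had 138, 160 and 126 CPM in Sham and 100, 84.5 and 42.2 in SCI mice (-0.90, SE 0.495, adjusted p = 0.155), which the other globin genes share in part. The number called lower was 0 by edgeR in all 9 mice, 2 by edgeR in the 6 mice and 4 by limma-voom. The part of any of these cell types in the other results was not tested. In other fits Hbb-bs (-0.99 to -0.90 with DESeq2 in 6 mice or limma-voom) passed.

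**Figure D5:**
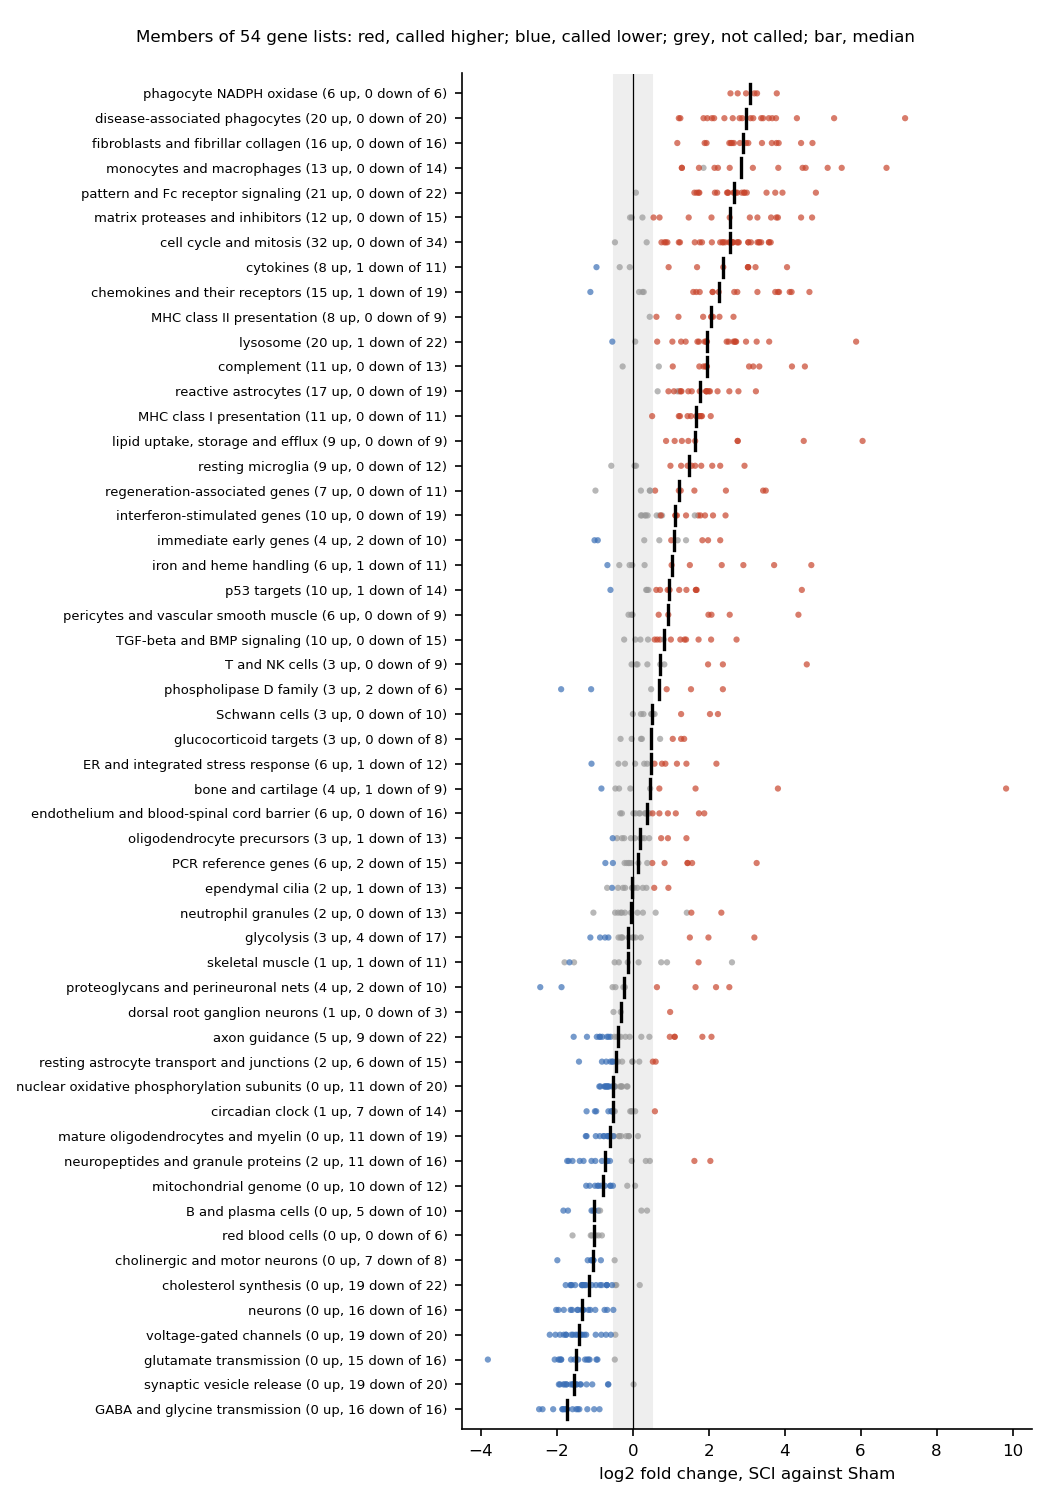
The log2 fold change of each tested member (points) of the 54 lists (rows, ordered by their median, the black bar) with the counts of called genes beside each name, red for called higher, blue for called lower, grey for not called, and a grey band within the fold limit of 0.5. Medians run from -1.74 for GABA and glycine transmission to 3.09 for the phagocyte NADPH oxidase.

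Several genes often used to scale PCR measurements changed. Of 15 such genes 6 were called higher and 2 lower, with a median of 0.145. Of all genes tested 24.4% were called higher and 22.5% lower. Actb had 866, 871 and 758 CPM in Sham and 2022, 2287 and 2461 in SCI mice (1.44, SE 0.0858, adjusted p = 2.5e-09), and Gusb, a lysosomal enzyme, a log2 fold change of 3.26. Rplp0 had a log2 fold change of 1.56, with 41.8% of its sequence shared with another annotated gene. Sdha fell by 0.73 and Hprt by 0.53 on the log2 scale. Gapdh, which the study used, had 139, 137 and 160 CPM in Sham and 131, 144 and 126 in SCI mice (-0.12, SE 0.0827, adjusted p = 0.22, 95% interval -0.30 to 0.059). How much of the sequence of Gapdh is shared with other genes was not measured. The genes of high expression that held closest were Adprh, Tpd52l2, Smarca4, Golga2 and Vdac2. Smarca4, a subunit of chromatin remodelling complexes, had 176, 165 and 180 CPM in Sham and 175, 173 and 172 in SCI mice (-0.0015, SE 0.0541, adjusted p = 0.982, 95% interval -0.12 to 0.11). Of 3640 genes whose mean log2 CPM was 6 or more, the 95% interval of 1492 lay wholly within the limits of 0.5. The call lost without 1 mouse was that of Hprt (-0.48 without SCI mouse 1).

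The classes of genes in the annotation had different counts. Of 15487 protein-coding genes tested 4054 were called higher and 3424 lower, of 689 lincRNA genes 113 and 211, and of 665 antisense genes 89 and 165, with medians of 0.024, -0.31 and -0.216. Processed pseudogenes, whose reads can come from their parent genes, had 155 called higher and 59 lower of 597, with a median of 0.215. The difference between the classes was not tested. H19, an imprinted RNA of growing tissue, had 2.49, 19.8 and 14.2 CPM in Sham and 579, 431 and 629 in SCI mice (5.47, SE 0.604, adjusted p = 0.000211), Sham mouse 1 being the lowest. Meg3, an abundant RNA of neurons, had 4327, 4436 and 4443 CPM in Sham and 2198, 2299 and 1988 in SCI mice (-1.03, SE 0.0767, adjusted p = 2.35e-08). Ifi30, a thiol reductase of lysosomes listed as noncoding by the annotation used, had 6.8, 8.77 and 6.02 CPM in Sham and 74.9, 80 and 83.3 in SCI mice (3.46, SE 0.118, adjusted p = 1.04e-10).

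Mice of a group resembled each other. Over 11542 genes whose mean log2 CPM was 3 or more the median SD of log2 CPM was 0.0853 among Sham mice and 0.0936 among SCI mice. Among the called genes that varied most among SCI mice were Irf7, Fos, Foxd1 and Ccn1. Foxd1, a factor of stromal cells, had 1.44, 5.31 and 5.39 CPM in Sham and 35.3, 14.1 and 28.8 in SCI mice (2.67, SE 0.501, adjusted p = 0.00294), with SCI mouse 2 the lowest of its group.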

How the data were processed

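Poly(A) RNA of 1 cord segment per mouse was sequenced from 3 Sham, 3 SCI and 3 SCI+FIPI mice, grouped by their labels. The deposited values are raw counts per gene in 1 table with an Ensembl identifier per row. The submitters' processing notes name GRCm38 and R 4.2.3, and the aligner, counter, annotation and strand setting are not given in the sources used here, so that genes sharing sequence, or overlapping on the other strand, cannot be told apart from their partners. Of 52550 identifiers 52403 were found in GENCODE M21, which gave symbols, positions, classes and exonic lengths.

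Counts were filtered by filterByExpr, scaled by TMM and fitted for all 9 mice by edgeR 4.0.16 (quasi-likelihood, robust, 6 residual degrees of freedom, R 4.3.3), with p-values adjusted by Benjamini-Hochberg over all 18699 genes that passed. Limits were an absolute log2 fold change of 0.5 and an adjusted p of 0.05, as in the methods of the study. The biological coefficient of variation was 9.3%. Between mice of 1 group the counts spread beyond sampling noise, the chi-square per gene lying between 7.9 and 13.2. Nothing says whether mice were handled together, and p-values measure only the spread between mice. Exact intervals of count ratios cover counting error only. Shared sequence was measured as the share of 50-base stretches found in another gene, only for the genes named by the rule below.

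Genes were named by a fixed rule (10 largest changes each way, 8 largest changes of CPM, 5 least changed, 5 most variable, 5 noncoding, highest FPKM, and in each list the 3 highest members, the extremes and members against the median), of which the text gives a part. Gapdh, P2ry12, Sall1, Lcn2, Ly6c2, Bglap, C2 and called members given by name alone were added after their values were seen. Some genes that the rule names are not reported here. The lists and the rule were chosen with earlier results of these data known. Scripts were tested on simulated data. Alternatives used DESeq2 1.42.0, limma 3.58.1 (voom), other scalings and filters, GC content and length offsets (99.9% of genes tested had both), a replicate block and each mouse left out. RefSeq promoters were searched for motifs with Python 3.11.15.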

Additional observations from a re-analysis of the deposited data

How the results depend on the processing

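The count of called genes stayed within 1.5 times of 8780 under 20 of 21 alternatives. It was 8786 with RLE scaling, 8894 with upper-quartile scaling, 9151 without a filter, 7647 with at least 10 counts in every mouse, 8577 with the 6 mice alone, 8612 and 8314 with DESeq2 in 9 and 6 mice, 8811 with limma-voom, 6710 when tested against a log2 fold change of 0.5, 8738 without mitochondrial, hemoglobin and Y-linked genes and 12315 without a fold limit. A limit of 1 on the log2 fold change gave 5059 genes, 2849 higher and 2210 lower, by construction. With 1 mouse left out between 8373 and 8850 genes were called, between 4408 and 4615 higher and between 3950 and 4291 lower. Offsets for GC content and length moved the median of all genes to -0.102 and gave 3966 higher and 4897 lower, so that 44.7% of calls were higher against 52.1%, and the cause was not tested. Among list medians 3 changed sign. Those of bone and cartilage (-0.0647) and of dorsal root ganglion neurons (0.238) did so with at least 10 counts in every mouse, which tests fewer genes, and that of neutrophil granules (0.581) without Sham mouse 2, the values without Sham mice 1 and 3 being -0.271 and -0.319. The replicate numbers come from different animals, and same-numbered mice had correlated deviations of 0.049, 0.0266 and 0.0589, with Sham mouse 1 closer to SCI mouse 2 (0.0598). A replicate block gave 8744 called genes, and with the offsets 8860. Of the 229 genes with values in the text, 17 lost and 6 gained a call in at least 1 fit without a mouse, and 19 had another call in at least 1 refit with all mice or with the 6. Under the block alone Cd79a (-0.858) lost a call and Siglech (-0.584) gained one. Depth limits what can be said of genes near the filter level of 0.422 CPM, where single counts decide a value.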

Other observations

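These groups were put together after the values had been seen, and their counts are a description. Genes of cytosolic ribosomal proteins, many of which share sequence with pseudogenes, were called higher in 69 of 79 cases and lower in none, their log2 fold changes having a median of 0.845 and a range from 0.0397 to 1.56, and their share of all counts went from 0.937 to 1.08% in Sham mice to 1.74 to 1.91% in SCI mice. Genes known from osteoclasts, the bone-resorbing relatives of macrophages, were called higher in 9 of the 12 tested, beside Atp6v0d2 among the largest rises. The phosphatase Acp5 had a log2 fold change of 4.10, the proton pump subunit Tcirg1 2.64, the collagen-degrading protease Ctsk 2.11, the receptor Tnfrsf11a 1.98, the transcription factor Nfatc1 1.74 and the integrin Itgb3 1.31. Car2, a carbonic anhydrase that oligodendrocytes also express, was called lower at -0.59. Macrophages are known to express several of these genes too. The bone and cartilage list of the report summed to between 119 and 138 CPM in SCI mice, against between 36 and 44 CPM in Sham mice. Of its 9 genes only 4 were called higher, and 1 was called lower. Col10a1 alone went from 5 counts in the Sham mice together to 5165 in the SCI mice. The part of bone and cartilage in the values of the osteoclast genes was not tested.

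Imprinted genes of growth control split, with 5 of 12 called higher and 5 lower, beside 24.4% higher and 22.5% lower of all genes tested. H19, Igf2 and Igf2r had log2 fold changes of 5.47, 2.86 and 1.47, and Grb10 and Cdkn1c 0.69 and 0.58. Dlk1, Peg3, Rian, Meg3 and Mirg had -1.44, -1.30, -1.19, -1.03 and -0.81, of which Dlk1, Rian, Meg3 and Mirg lie in 1 imprinted cluster.

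Over protein-coding genes ordered by the length of genome they span, the median log2 fold change went from 0.176 in the shortest of 5 equal groups to -0.216 in the longest, above 76.3 kb. Of the longest group 35.5% were called lower and 18.8% higher, and of the shortest 18.0% and 32.0%. No test was made of this order.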
